A study of Mus musculus with 10 samples.

Results

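The unfolded protein response and the protein-folding machinery of the endoplasmic reticulum (ER) are described here through 33 genes, of 12393 genes with a symbol of their own on the array. They were taken by name: every probe set whose platform gene symbol was one of the 33 was used, 74 of 22690 probe sets in all. The genes fall into sensors (Atf6, Ern1 and Eif2ak3, with the transcription factor Xbp1), chaperones of the Hsp70 and Hsp90 type with their partners, lectin chaperones, disulfide-forming enzymes, the degradation pathway, and the translocation and export machinery. RNA came from cultured dendritic cells that had been derived from marrow of C57BL/6 mice aged 6 to 8 weeks, either Cd14-/- or wild type, in medium with the supernatant of B16 tumor cells that secrete GM-CSF, and cultures were used after 7 to 10 days when over 90% of the cells carried CD11c. In each genotype, 1 culture received smooth LPS at 1 µg/ml with 50 nM thapsigargin for 48 h and 1 for 60 h, 1 received LPS alone for 48 h and 1 for 60 h, and 1 was left unstimulated and harvested at 24 h. That gave 10 arrays, 1 for each condition. The labels give no culture with thapsigargin alone and do not say how many mice a culture came from. CD14 is the surface co-receptor that hands LPS to TLR4, and thapsigargin blocks the calcium pump of the ER.

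Proteins that enter the ER are folded there by chaperones, many of which need calcium. When unfolded proteins pile up or ER calcium is drained, 3 membrane sensors respond: ATF6 is cut to release a transcription factor, IRE1 (the product of Ern1) splices the mRNA of Xbp1, and PERK (the product of Eif2ak3) slows translation. Their output raises the genes of chaperones, disulfide enzymes and the machinery that exports misfolded proteins for degradation. Thapsigargin is a standard laboratory trigger of this response, and dendritic cells are known for IRE1 and XBP1 activity even at rest.

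The response has a well-known promoter signature, so the 250 bases before the transcription start of the members were searched on both strands in RefSeq sequence (GRCm38.p6), where 28 of the 33 genes had a window. The ER stress element (ERSE, CCAAT and CCACG with 9 bases of any kind between them), bound by ATF6 together with NF-Y, was present in 10 of these 28 (35.7%), against 35 of 27018 genes overall (0.13%). The 10 were Calr, Canx, Creld2, Derl3, Dnajc3, Ero1b, Hsp90b1, Hspa5, Pdia6 and Syvn1. The element was defined in the literature on chaperone promoters, among them those of human HSPA5, HSP90B1 and CALR, so its presence there is background and not a result. A related element (ERSE-II, ATTGG and CCACG with 1 base of any kind between them) was found in Herpud1 (3.57% of members, 0.037% of all genes). The XBP1 site TGACGTGG, whose end overlaps the CCACG end of ERSE on the opposite strand, was found in Sec24d (3.57%, against 0.603%), and the site TGATGNAAT, read by ATF4 with C/EBP factors, in 0 of 28 members, against 0.911% of all genes. A match describes the letters in the window and does not show that a factor binds there.

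The windows of 7 members are printed 5′ to 3′ on the strand of the gene, with ERSE or ERSE-II in capitals, which read in reverse complement where the element lies on the opposite strand (Creld2 and the copy of Hsp90b1 nearer the start). They are Hspa5 as the textbook case (chr2:34771840-34772089 on the plus strand), Hsp90b1 for its 2 copies (chr10:86705445-86705694 on the minus strand), Pdia6 (chr12:17266339-17266588 on the plus strand), Creld2 (chr15:88819396-88819645 on the plus strand) and Syvn1 (chr19:6046326-6046575 on the plus strand) because they were among the members that changed most, Herpud1 for ERSE-II (chr8:94386179-94386428 on the plus strand), and Sdf2l1 as a strongly changing member whose window holds neither element (chr16:17132384-17132633 on the minus strand).
Hspa5: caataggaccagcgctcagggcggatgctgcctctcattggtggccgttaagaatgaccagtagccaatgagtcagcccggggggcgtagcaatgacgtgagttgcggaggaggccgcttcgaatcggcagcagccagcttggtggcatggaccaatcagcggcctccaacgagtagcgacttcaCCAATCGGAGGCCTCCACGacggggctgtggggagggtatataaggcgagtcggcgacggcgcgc
Hsp90b1: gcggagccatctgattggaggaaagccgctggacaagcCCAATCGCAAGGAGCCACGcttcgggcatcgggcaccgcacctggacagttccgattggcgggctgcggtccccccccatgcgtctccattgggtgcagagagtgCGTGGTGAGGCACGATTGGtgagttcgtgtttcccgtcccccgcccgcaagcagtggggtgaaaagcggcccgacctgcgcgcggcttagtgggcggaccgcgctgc
Pdia6: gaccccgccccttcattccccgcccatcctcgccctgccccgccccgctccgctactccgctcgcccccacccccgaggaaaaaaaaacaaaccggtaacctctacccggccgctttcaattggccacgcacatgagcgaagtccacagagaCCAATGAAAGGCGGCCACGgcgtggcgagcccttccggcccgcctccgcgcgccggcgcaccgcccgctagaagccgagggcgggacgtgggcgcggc
Creld2: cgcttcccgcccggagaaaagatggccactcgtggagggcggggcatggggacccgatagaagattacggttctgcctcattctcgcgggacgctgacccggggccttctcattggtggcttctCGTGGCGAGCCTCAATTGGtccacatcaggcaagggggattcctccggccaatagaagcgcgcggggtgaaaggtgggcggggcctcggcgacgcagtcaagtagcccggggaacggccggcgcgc
Syvn1: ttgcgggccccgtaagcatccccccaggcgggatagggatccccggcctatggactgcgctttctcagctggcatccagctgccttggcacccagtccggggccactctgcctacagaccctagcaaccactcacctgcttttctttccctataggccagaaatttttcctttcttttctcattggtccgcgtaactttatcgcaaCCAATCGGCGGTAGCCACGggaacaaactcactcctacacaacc
Herpud1: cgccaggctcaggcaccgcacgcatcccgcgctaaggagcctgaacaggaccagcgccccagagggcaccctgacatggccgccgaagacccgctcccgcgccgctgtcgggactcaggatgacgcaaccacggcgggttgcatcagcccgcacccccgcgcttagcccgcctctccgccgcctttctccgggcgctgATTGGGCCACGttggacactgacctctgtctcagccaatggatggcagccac
Sdf2l1: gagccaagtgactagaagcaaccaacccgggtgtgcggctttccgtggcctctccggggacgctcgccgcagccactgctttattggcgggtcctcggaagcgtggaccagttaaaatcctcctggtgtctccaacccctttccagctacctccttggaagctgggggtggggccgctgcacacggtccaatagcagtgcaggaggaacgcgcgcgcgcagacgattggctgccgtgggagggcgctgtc

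Values are scaled MAS5 signals, a linear probe set intensity after each array was set to the same trimmed mean, and each gene is read on its brightest probe set, so levels of different genes cannot be compared. Of the 33 members, 32 passed the filter on dim signals, a scaled signal above 99.2 on at least 2 arrays, and 7474 genes did so in all. Cd14 lay between 1.85 and 7.35, under the floor of 13.4, on the 5 Cd14-/- arrays, and between 1499 and 17729 on the 5 wild-type arrays. The Cd14-/- LPS arrays differed from each other in marker genes: Itgax, which encodes CD11c, read 892 at 48 h and 6941 at 60 h, and Flt3 read 1149 at 48 h and 334 at 60 h, against at most 114 on any other array. The 48 h array also had the lowest cRNA yield, 15 µg, followed by the wild-type LPS array at 60 h with 19 µg. The 18S control probe sets read 114 to 385 on the first and 217 to 685 on the second, against at least 1426 on the other 8 arrays. The Gapdh 3′ to 5′ ratio was 0.98 on the first, against 0.71 to 0.848 on the others, and the beta-actin ratio was 1.62 on the second, against 1.02 to 1.14 on the others. The part of these differences in the results below was not tested. Counts of members called for thapsigargin in each genotype and for the genotypes under LPS are therefore also given without each Cd14-/- LPS array. Medians by role and by promoter, the wider gene lists and the marker genes are given with all arrays only.

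In Cd14-/- cells thapsigargin raised part of the folding machinery, mainly chaperones. Of the 32 tested members, 8 rose there with LPS plus thapsigargin over LPS alone and 0 fell (limma, Benjamini-Hochberg adjusted over 7474 genes), where 3.43% of all tested genes rose, 3.2% fell and 6.62% passed in either direction. The 8 were Hspa5, Hsp90b1, Hyou1, Dnajc3, Manf, Pdia6, Creld2 and Syvn1, with log2 changes between 0.94 and 1.71. The median log2 change of the 32 members was 0.79, and that of all 7474 genes was −0.00. In wild-type cells 0 members passed in either direction, where 0.0134% of all genes rose, 0.0401% fell and 0.0535% passed in either direction, and 12 members were higher and 0 lower at an unadjusted p under 0.05, where 6.69% of all genes were higher and 3.61% lower. The wild-type members had a median log2 change of 0.49, against 0.11 over all genes. That count of 0 depended on the spread shared by all arrays: without the Cd14-/- LPS array at 48 h or at 60 h, 15 members rose in wild type and 0 fell, while 7.84% and 7.95% of all genes passed in either direction without the 48 h and the 60 h array. In bulk RNA, fewer cells of a type and less RNA per cell cannot be told apart, and p-values leave out how far separate cultures or mice vary, since the arrays at 48 and 60 h stand in for repeats.

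**Figure D1:**
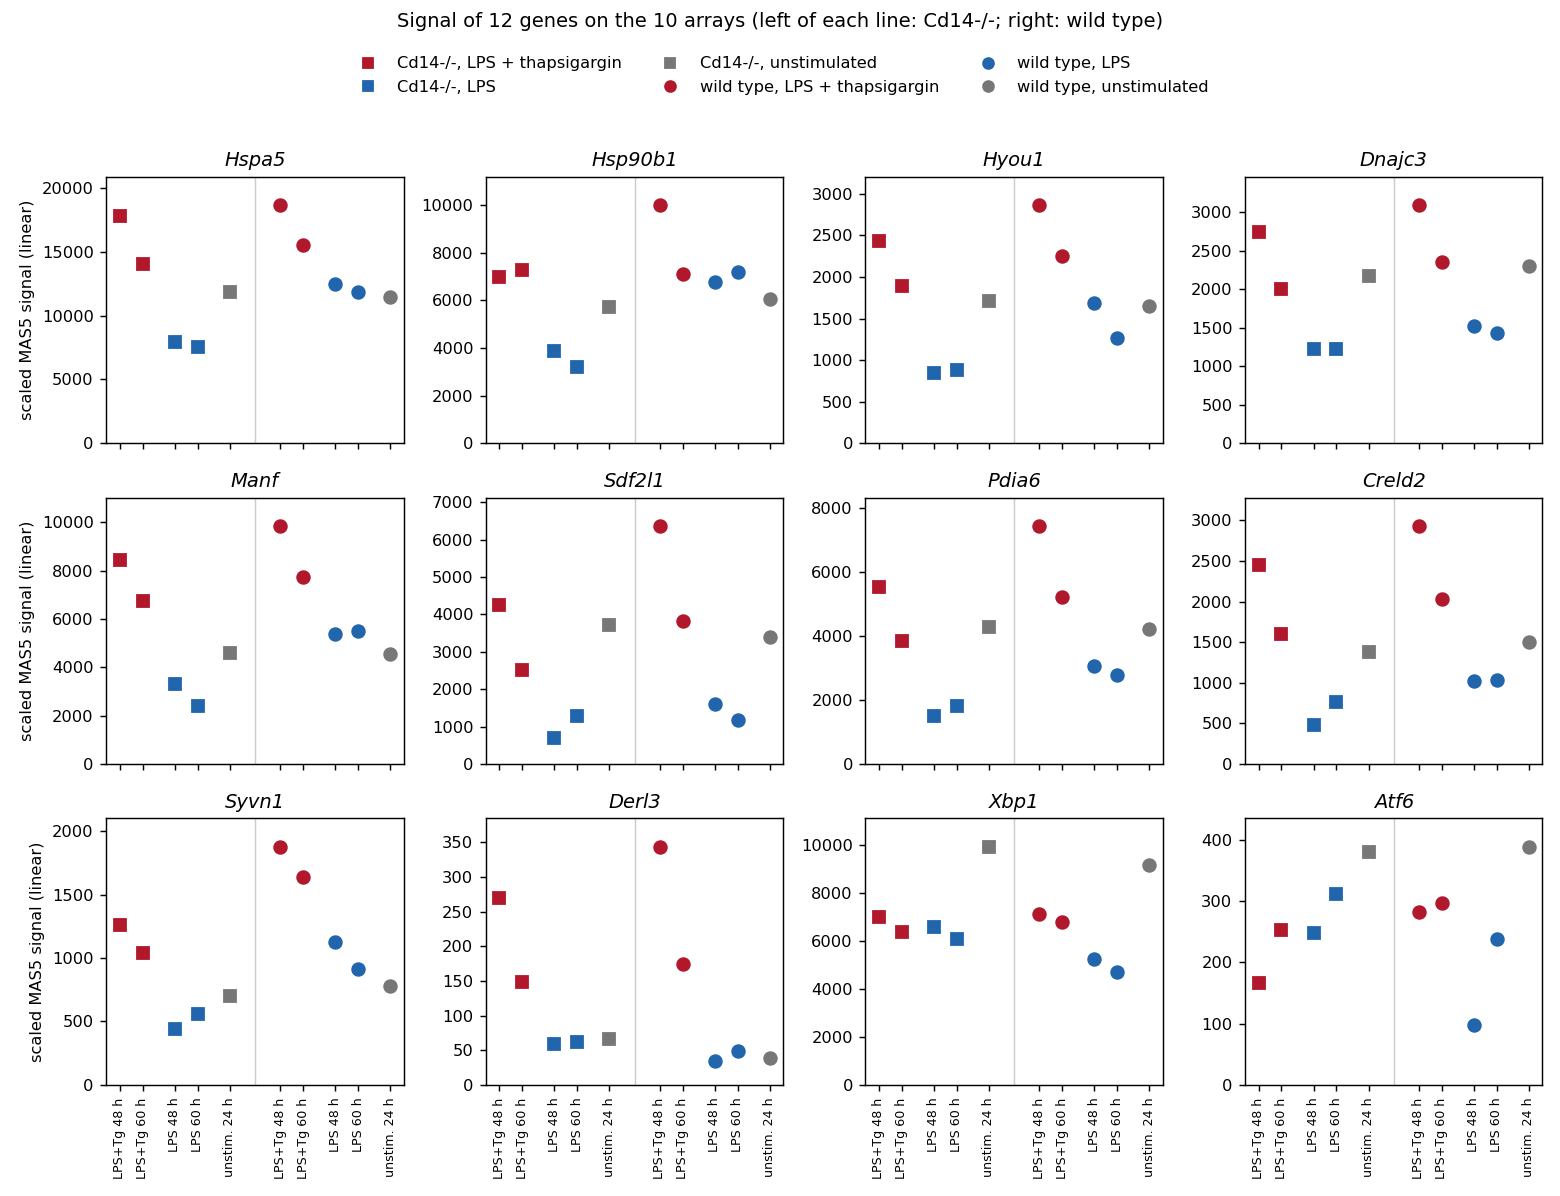
Scaled MAS5 signal (linear axis starting at 0) of 12 genes on each of the 10 arrays; each point is 1 array, squares on the left are Cd14-/- and circles on the right wild type, red is LPS plus thapsigargin, blue LPS alone and grey unstimulated. Hspa5 reached 17789 and 14081 in Cd14-/- cells with thapsigargin, against 7954 and 7564 with LPS alone, while Xbp1 stayed highest on the unstimulated arrays.

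Hspa5 encodes BiP, the Hsp70 chaperone of the ER that also holds the sensors inactive. Its signal was 17789 and 14081 at 48 and 60 h in Cd14-/- cells with LPS and thapsigargin, 7954 and 7564 with LPS alone and 11868 unstimulated. In wild-type cells it was 18650.1 and 15503 with thapsigargin, 12444 and 11857 with LPS and 11489 unstimulated. All 4 arrays with thapsigargin lay above all 4 with LPS alone, and the Cd14-/- LPS arrays lay lowest of all 10. The log2 change with thapsigargin was 1.03 ± 0.12 in Cd14-/- cells, a 2.04-fold rise (limma adjusted p = 0.0165), and 0.49 ± 0.12 in wild-type cells (adjusted p = 0.311).

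Manf encodes a small ER protein that binds BiP and can be secreted. It read 8441 and 6741 in Cd14-/- cells with thapsigargin, 3325 and 2385 with LPS and 4607 unstimulated, and 9844 and 7752 in wild-type cells with thapsigargin, 5366 and 5511 with LPS and 4544 unstimulated. Every thapsigargin array exceeded every LPS array, and only the Cd14-/- LPS arrays lay below the unstimulated ones. Its log2 rise in Cd14-/- cells was 1.42 ± 0.16 (adjusted p = 0.0158), against 0.68 ± 0.16 in wild type (adjusted p = 0.284).

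Hyou1, the exchange factor that reloads BiP with ATP, read 2431 and 1887 in Cd14-/- cells with thapsigargin, 839 and 875 with LPS and 1709 unstimulated. The wild-type signals were 2864 and 2256 with thapsigargin, 1686 and 1268 with LPS and 1655 unstimulated. The thapsigargin and LPS arrays did not overlap in either genotype. The log2 change was 1.32 ± 0.18 in Cd14-/- cells (adjusted p = 0.0191) and 0.80 ± 0.18 in wild type (adjusted p = 0.254).

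Dnajc3, a co-chaperone also known as p58IPK, read 2743 and 2007 in Cd14-/- cells with thapsigargin, 1218 and 1227 with LPS and 2169 unstimulated, and 3092 and 2349 in wild-type cells with thapsigargin, 1529.5 and 1435 with LPS and 2307 unstimulated. The arrays with LPS alone lay below the unstimulated array in both genotypes, and those with thapsigargin lay near or above it. The log2 changes were 0.94 ± 0.18 in Cd14-/- cells (adjusted p = 0.039) and 0.86 ± 0.18 in wild type (adjusted p = 0.216). Its probe sets disagreed: of 4 with a mean signal above the pooled median, 2 were higher with thapsigargin in Cd14-/- cells and 4 in wild type.

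Hsp90b1 encodes GRP94, the ER Hsp90 that folds Toll-like receptors, TLR4 included, and integrins. It read 6978 and 7259 in Cd14-/- cells with thapsigargin, 3861 and 3219 with LPS and 5735 unstimulated, and 9999.97 and 7124 in wild-type cells with thapsigargin, 6784 and 7197 with LPS and 6046 unstimulated. The Cd14-/- groups did not overlap, whereas in wild type the 60 h array with thapsigargin lay between the LPS arrays. The log2 change was 1.01 ± 0.18 in Cd14-/- cells (adjusted p = 0.0316), against 0.27 ± 0.18 in wild type (adjusted p = 0.641). Its other probe set read 6344 and 4330 in wild-type cells with thapsigargin, against 3501 and 2362 with LPS, without overlap. On that probe set the log2 changes were 1.22 in Cd14-/- cells and 0.87 in wild type.

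Sdf2l1, a partner of BiP and its J-domain co-chaperones, had the largest log2 change of the chaperones in both genotypes but a wide spread. It read 4248 and 2525 in Cd14-/- cells with thapsigargin, 704 and 1287 with LPS and 3721 unstimulated, and 6364 and 3824 in wild-type cells with thapsigargin, 1598 and 1178 with LPS and 3400.2 unstimulated. The thapsigargin arrays lay above the LPS arrays throughout, and all 4 LPS arrays lay below the unstimulated ones. The log2 changes were 1.78 ± 0.41 in Cd14-/- cells (adjusted p = 0.0585) and 1.85 ± 0.41 in wild type (adjusted p = 0.237), and neither passed. The other 2 members of the group were the J-domain co-chaperones Dnajb9, with 1.02 ± 0.27 in Cd14-/- and 0.32 ± 0.27 in wild-type cells, and Dnajb11, with 0.78 ± 0.37 and 0.64 ± 0.37 in the same order.

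Among the 7 disulfide enzymes, 2 rose in Cd14-/- cells. Pdia6, a protein disulfide isomerase, read 5539.8 and 3852 with thapsigargin, 1503 and 1813 with LPS and 4289 unstimulated in Cd14-/- cells, and 7425 and 5204 with thapsigargin, 3055 and 2774 with LPS and 4213 unstimulated in wild type. LPS alone lay below the unstimulated array in both genotypes, and the thapsigargin arrays lay above all LPS arrays. Its log2 change was 1.48 ± 0.23 in Cd14-/- cells (adjusted p = 0.023) and 1.09 ± 0.23 in wild type (adjusted p = 0.214).

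Creld2, an ER protein with EGF-like domains induced by ER stress, read 2453 and 1606 in Cd14-/- cells with thapsigargin, 481 and 762 with LPS and 1378 unstimulated, and 2929 and 2035 in wild-type cells with thapsigargin, 1026 and 1035 with LPS and 1499 unstimulated. The 4 thapsigargin arrays were the 4 highest of the 10. The log2 change was 1.71 ± 0.33 in Cd14-/- cells (adjusted p = 0.0398), the largest among the 8 members that passed there, and 1.25 ± 0.33 in wild type (adjusted p = 0.322). The isomerases Pdia3, Pdia4 and P4hb had log2 changes between 0.87 and 0.95 in Cd14-/- cells and between 0.43 and 0.95 in wild type, and 0 of the 3 passed. Of the oxidases that recharge these enzymes, Ero1a had 1.11 ± 0.52 in Cd14-/- and 0.17 ± 0.52 in wild-type cells, and Ero1b had −0.36 ± 0.22 and −0.13 ± 0.22, also in that order, with 0 passing.

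In the degradation pathway 1 of 7 members rose in Cd14-/- cells. Syvn1 encodes HRD1, the ubiquitin ligase that marks misfolded ER proteins. It read 1261 and 1042 in Cd14-/- cells with thapsigargin, 440.1 and 558 with LPS and 699 unstimulated, and 1875 and 1638 in wild-type cells with thapsigargin, 1126 and 916 with LPS and 779.6 unstimulated. The groups did not overlap within a genotype, though the wild-type LPS array at 48 h lay above the Cd14-/- thapsigargin array at 60 h. The log2 change was 1.21 ± 0.22 in Cd14-/- cells (adjusted p = 0.0319) and 0.79 ± 0.22 in wild type (adjusted p = 0.351).

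Derl3, one of the Derlins that help misfolded proteins leave the ER, read 269 and 149 in Cd14-/- cells with thapsigargin, 59.6 and 62.2 with LPS and 66.4 unstimulated, and 343 and 175 in wild-type cells with thapsigargin, 34.6 and 49.6 with LPS and 38.7 unstimulated. Only the 4 thapsigargin arrays exceeded the filter level of 99.2, so the gene was tested because it is high there and its place among the tested members is no support for a rise. Its log2 changes were 1.72 ± 0.43 in Cd14-/- cells and 2.56 ± 0.43 in wild type, and neither passed. Of the others, Sel1l (the HRD1 adaptor), Derl1 and Derl2 had log2 changes between 0.47 and 0.80 in Cd14-/- cells and between 0.17 and 0.69 in wild type, without passing. The other Derl2 probe set went the opposite way in Cd14-/- cells, with 147 and 223 with thapsigargin, against 407 and 389 with LPS. Its log2 changes were −1.14 in Cd14-/- cells and −0.06 in wild type. Edem1, which hands glycoproteins to degradation, had 0.26 ± 0.14 in Cd14-/- and −0.16 ± 0.14 in wild-type cells.

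Herpud1, a scaffold of the HRD1 complex, depended on the probe set. The brighter probe set read 1331 and 1069 in Cd14-/- cells with thapsigargin and 1916 and 551 with LPS, against 1309 and 992 in wild-type cells with thapsigargin and 389.8 and 592 with LPS. The other probe set read 670.3 and 458 in Cd14-/- cells with thapsigargin and 242 and 216 with LPS, and 775 and 385 in wild-type cells with thapsigargin and 187 and 237 with LPS. Both were higher with thapsigargin in wild type, but in Cd14-/- cells the brighter one was highest on the LPS array at 48 h, where the other was low. The log2 changes on the brighter probe set were 0.21 ± 0.52 in Cd14-/- and 1.25 ± 0.52 in wild-type cells, and neither passed.

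Among the sensors and Xbp1, 0 of 3 tested genes passed in either genotype. Atf6 read 167 and 252 in Cd14-/- cells with thapsigargin, 247 and 311 with LPS and 379 unstimulated, and 282 and 297 in wild-type cells with thapsigargin, 98.3 and 238 with LPS and 388 unstimulated. At matched times it was lower with thapsigargin in Cd14-/- cells, where the groups overlapped, and higher in wild type, where they did not, and it was highest on both unstimulated arrays. The log2 changes were −0.44 ± 0.32 in Cd14-/- cells (adjusted p = 0.413) and 0.92 ± 0.32 in wild type (adjusted p = 0.423).

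Eif2ak3 read 606 and 638 in Cd14-/- cells with thapsigargin, 1152 and 499.9 with LPS and 573 unstimulated, and 587 and 562 in wild-type cells with thapsigargin, 293 and 565 with LPS and 581 unstimulated. The groups overlapped in both genotypes, and 1 array, Cd14-/- LPS at 48 h, was far above the rest. Ern1 did not pass the filter: its brightest probe set read 106 and 80.2 in Cd14-/- cells with thapsigargin, 99 and 65.7 with LPS and 65.5 unstimulated, and 86.1 and 82.9, 76.8 and 80.9 and 40.0 under the same conditions in wild type. Its log2 changes with thapsigargin were 0.19 in Cd14-/- cells and 0.10 in wild type. The next brightest Ern1 probe set disagreed, with 2.17 in Cd14-/- cells and −0.21 in wild type. It read 17.8 and 27.1 with LPS in Cd14-/- cells, near the floor of 13.4. The dimmest Ern1 probe set changed by −0.10 in Cd14-/- cells and 0.07 in wild type. Whether Ern1 changed was not tested. Xbp1, whose activation is a splicing step that these total signals do not show, read 7011 and 6371 in Cd14-/- cells with thapsigargin, 6604 and 6092 with LPS and 9923 unstimulated, and 7118 and 6809.5 in wild-type cells with thapsigargin, 5257 and 4726 with LPS and 9163 unstimulated. Both unstimulated arrays were the highest, and thapsigargin lay above LPS in wild type, with overlap in Cd14-/- cells. Its log2 changes with thapsigargin were 0.08 ± 0.12 in Cd14-/- cells (adjusted p = 0.703) and 0.48 ± 0.12 in wild type (adjusted p = 0.288).

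Of the lectin chaperones and the translocation and export genes, 0 passed. The lectin chaperones that hold glycoproteins, Calr and Canx, had log2 changes of 0.72 ± 0.18 and 0.55 ± 0.13 in Cd14-/- cells, against 0.33 ± 0.18 and 0.02 ± 0.13 in wild type, and 0 of 2 passed in either. Of 3 Canx probe sets with a mean signal above the pooled median, 2 were higher with thapsigargin in each genotype. The dimmest of them changed by −0.28 in Cd14-/- cells and −0.43 in wild type. For the translocation channel (Sec61a1, Sec61b), its partner complex (Ssr1, Ssr3) and the export coat protein Sec24d, log2 changes ran from 0.09 to 0.57 in Cd14-/- cells and from 0.15 to 0.53 in wild type, with 0 of 5 passing in either. By role, the median log2 change in Cd14-/- cells was 1.02 for the Hsp70 and Hsp90 group (5 of 8 rose). It was 0.95 for the disulfide enzymes (2 of 7), 0.53 for degradation (1 of 7) and 0.63 for the lectin chaperones. For translocation and export it was 0.26, and for the sensors with Xbp1 −0.29. In wild type these medians were 0.66, 0.65, 0.69, 0.17, 0.34 and 0.50 for the same groups in that order.

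**Figure D2:**
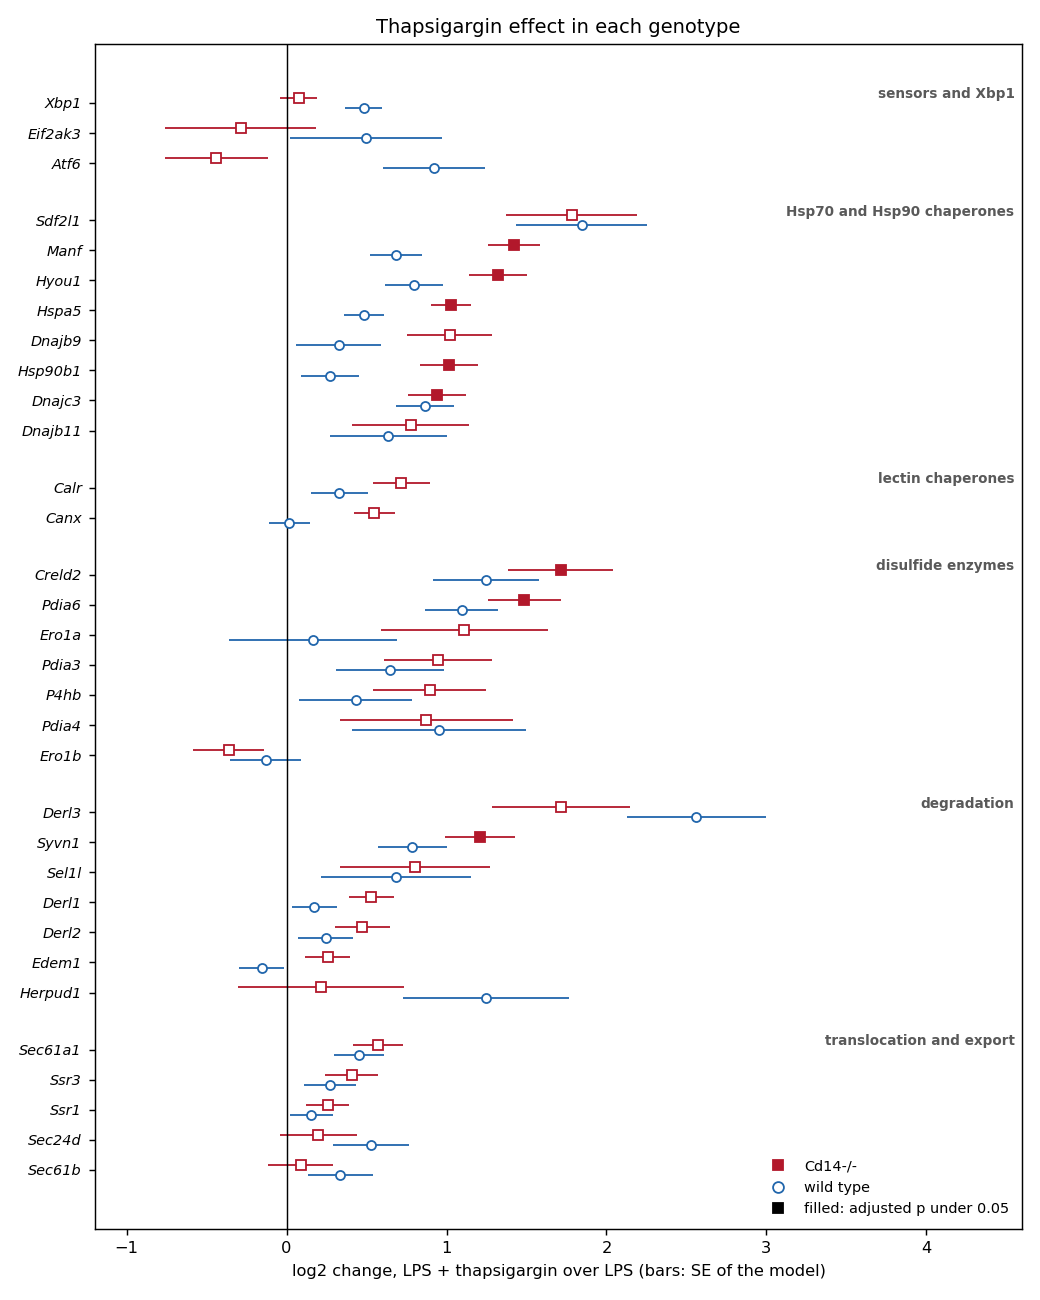
Log2 change of the 32 tested members with LPS plus thapsigargin over LPS alone, with the standard error of the model; red squares are Cd14-/- and blue circles wild type, and filled symbols passed an adjusted p of 0.05. The 8 filled symbols are all Cd14-/-, 5 of them among the Hsp70 and Hsp90 chaperones, while Atf6, Eif2ak3 and Xbp1 show none.

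Whether thapsigargin acted differently in the genotypes was tested as the difference of its effects. Of the 32 members, 0 passed (limma, adjusted over all genes), where 0% of all genes passed, and at an unadjusted p under 0.05 the effect was larger in Cd14-/- cells for 4 members (Hspa5, Hsp90b1, Manf and Canx) and smaller for 2 (Atf6 and Xbp1), where it was larger for 5% and smaller for 8.3% of all genes. The difference was 0.74 ± 0.23 for Manf (adjusted p = 0.295), 0.54 ± 0.18 for Hspa5 (adjusted p = 0.297) and −1.36 ± 0.45 for Atf6 (adjusted p = 0.308). The 8 calls in Cd14-/- cells and the 0 in wild type are thus not shown to differ.

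Averaged over both genotypes, a comparison chosen after the data were seen, 10 of the 32 members rose with thapsigargin and 0 fell, where 3.3% of all genes rose, 2.73% fell and 6.03% passed in either direction. The 10 were the 8 named above plus Sdf2l1 (1.81 ± 0.29, adjusted p = 0.0264) and Derl3 (2.14 ± 0.31, adjusted p = 0.022). Derl3 was tested only because it is high with thapsigargin, and 9 members rose without it. The median log2 change was 0.65 over the members and 0.05 over all genes. Without any model, 22 members (21 without Derl3) were higher with thapsigargin in all 4 pairs, where 19.9% of all genes were. Each pair was matched for genotype and time. At least 1.5-fold higher in all 4 pairs were 7 members (Creld2, Derl3, Dnajc3, Hyou1, Pdia6, Sdf2l1 and Syvn1), or 6 without Derl3, where 1.42% of all genes were. Only Ero1b was lower in all 4, where 10.2% of all genes were. All 4 thapsigargin arrays lay above all 4 LPS arrays for 11 members, or 10 without Derl3, where 8.67% of all genes did, and below them for 0, where 3.83% did.

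The thapsigargin effect in Cd14-/- cells rests on 2 LPS arrays that differed from each other. Without the Cd14-/- LPS array at 48 h, 15 members rose and 1 fell in the same comparison, where 28.8% of all genes passed, and all 8 named members kept their call. With 1 LPS array left in the group, calls grew over all genes too, so a kept call is weak support. The log2 changes of the 8 were between 0.78 for Dnajc3 and 1.56 for Manf without the 48 h array. Creld2 had 1.19 and Pdia6 1.15 without that array, each less than with it, and Sdf2l1 had 1.03. Without the 60 h array instead, 22 members rose and 0 fell, where 38.7% of all genes passed, again with all 8 among them, from 0.94 for Hsp90b1 to 2.23 for Creld2. Without any 1 of the 4 thapsigargin arrays, 0 members passed, and without either wild-type LPS array 3 did (Hspa5, Hyou1 and Manf). The pairs at 48 h and at 60 h gave 1.16 and 0.90 for Hspa5, 1.88 and 1.09 for Pdia6, and 2.35 and 1.08 for Creld2. Some isomerases differed widely between the times: Pdia4 had 1.83 at 48 h and −0.08 at 60 h, and P4hb 1.57 and 0.22 at the same times. In the full data the median over members was 0.95 in the 48 h pair and 0.42 in the 60 h pair in Cd14-/- cells, and 0.56 and 0.38 in wild type.

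Promoters with and without the element were set side by side. In Cd14-/- cells the 11 tested members with ERSE or ERSE-II had a median log2 change with thapsigargin of 1.01, and 6 of them rose. The 16 members whose window held neither had a median of 0.63, and 0 of them rose. Of all tested genes, 3.43% rose. Hyou1 and Manf, which also rose, have no window in the table used and stand in neither group, nor do Atf6, Derl1 and Sec61a1. In wild type the medians were 0.79 and 0.46 in that order. Derl3, tested only because it is high with thapsigargin, is among the 11. Members with the element ranged from −0.36 for Ero1b to 1.72 for Derl3 in Cd14-/- cells, and Sdf2l1 reached 1.78 without it. The 6 and 0 calls rest on 2 Cd14-/- LPS arrays that differed from each other. Without the 60 h or the 48 h one, Creld2, with ERSE, had 2.23 or 1.19. Among members with neither element, Pdia4 had 1.90 or −0.16 and Ero1a 2.12 or 0.11, in the same order. These are descriptions of members chosen by name, with no test.

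**Figure D3:**
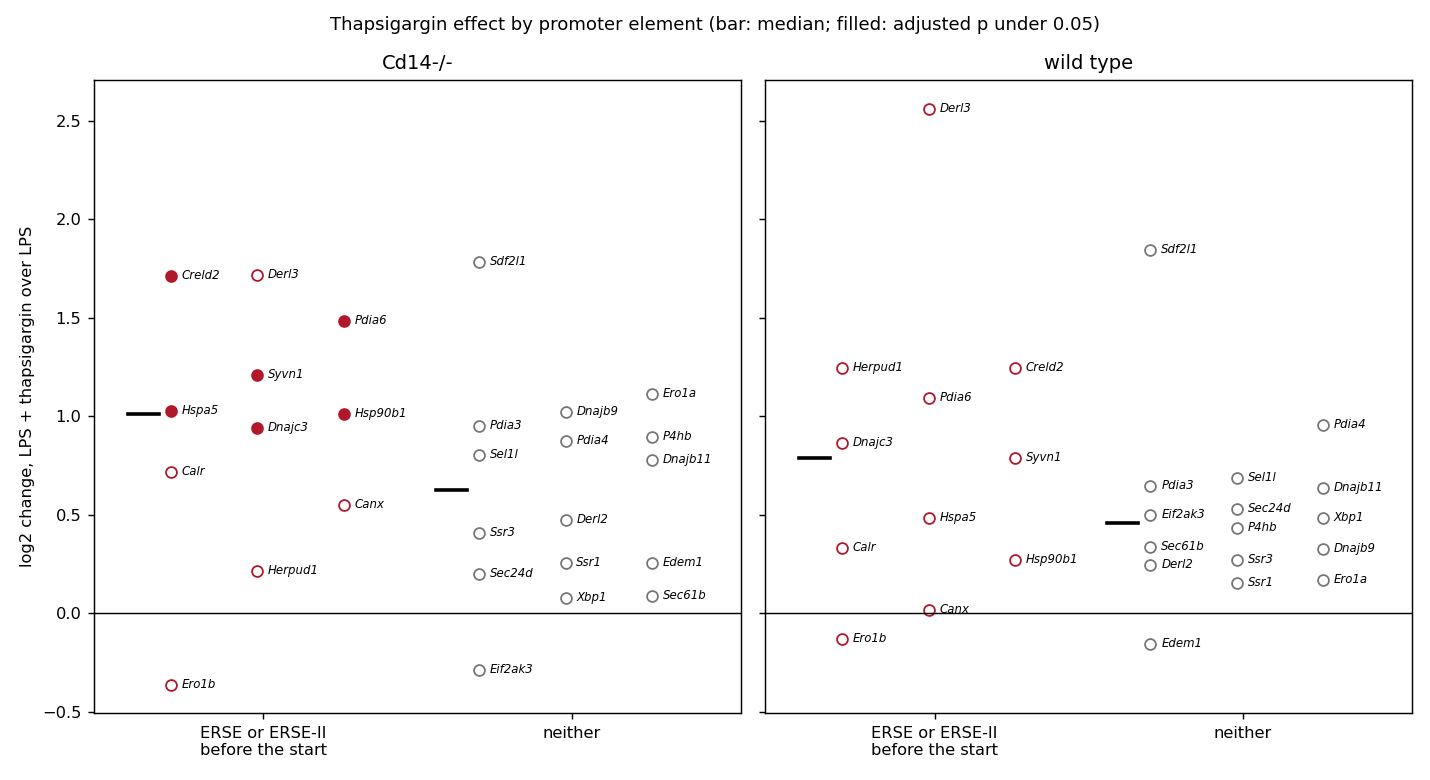
Log2 change with LPS plus thapsigargin over LPS in Cd14-/- (left) and wild-type cells (right), by whether the 250 bases before the start hold ERSE or ERSE-II; each circle is 1 of the 27 tested members with a window, bars are medians and filled circles passed an adjusted p of 0.05. The 6 filled circles all belong to members with the element, and Ero1b lies below 0 among members with the element in both genotypes. The calls rest on Cd14-/- LPS arrays that differed from each other.

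Under LPS alone, 3 chaperone genes were lower in Cd14-/- than in wild-type cells. Of the 32 members, 3 fell and 0 rose in Cd14-/- relative to wild-type LPS cells, where 2.61% of all genes fell, 2.57% rose and 5.18% passed in either direction. The 3 were Hspa5 (−0.65 ± 0.12, limma adjusted p = 0.045), Hsp90b1 (−0.99 ± 0.18, adjusted p = 0.0413) and Manf (−0.95 ± 0.16, adjusted p = 0.0376). The median log2 difference was −0.46 over the members and 0.08 over all genes. Both Cd14-/- LPS arrays lay below both wild-type LPS arrays for 18 members, where 20.8% of all genes did, among them 6 of 8 in the Hsp70 and Hsp90 group. The sensors and Xbp1 had positive differences, 0.86 ± 0.32 for Atf6, 0.90 ± 0.47 for Eif2ak3 and 0.35 ± 0.12 for Xbp1, and 0 passed. Without the Cd14-/- LPS array at 48 h the differences were −0.57 for Hspa5, −1.06 for Hsp90b1 and −1.08 for Manf. The median over the members then moved to −0.15, and without the 60 h array it was −0.59. These fits leave 1 Cd14-/- LPS array each, so calls kept in them are weak support. Without any 1 of the other 6 stimulated arrays 0 members passed. Marker genes of dendritic and other cells differed between the same arrays. Jchain (2.04 ± 0.34), the dendritic gene Flt3 (3.05 ± 0.52) and the neutrophil gene Camp rose in Cd14-/- cells. The macrophage gene Adgre1 (−1.25 ± 0.22) and the stromal gene Dcn (−3.04 ± 0.47) fell. These single genes do not stand for their lists. Differences were positive for 4 and negative for 3 of 7 macrophage markers, and positive for 2 and negative for 2 of 4 neutrophil markers. They were positive for 7 and negative for 1 of 8 dendritic markers. For the 4 tested B and plasma cell markers, 3 were positive and 1 negative. Ighm read 1789 and 1364 in Cd14-/- cells with LPS, against 159.6 and 512 in wild-type cells, and Dcn read 89.2 and 416, against 921 and 2707. Their part in the difference was not tested. The Cd14-/- LPS arrays also enter the thapsigargin comparison with the opposite sign, so a low Cd14-/- LPS signal makes a larger thapsigargin change in that genotype.

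Of the 32 members, 0 passed between Cd14-/- and wild-type cells under LPS plus thapsigargin, where 0.0268% of all genes passed. At an unadjusted limma p under 0.05, 0 were higher and 1 lower, near the 1.53% and 2.88% of all genes. That 1 was Syvn1 (−0.61 ± 0.22, adjusted p = 1). The median difference was −0.21 over the members and −0.03 over all genes. It was negative for 28 of the 32 members, where 4077 of 7474 genes had a negative difference. Both Cd14-/- arrays lay below both wild-type arrays for 9 members, where 23% of all genes did. Unstimulated, the median log2 difference between the single arrays was −0.00, with 15 members higher and 17 lower in Cd14-/- cells.

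**Figure D4:**
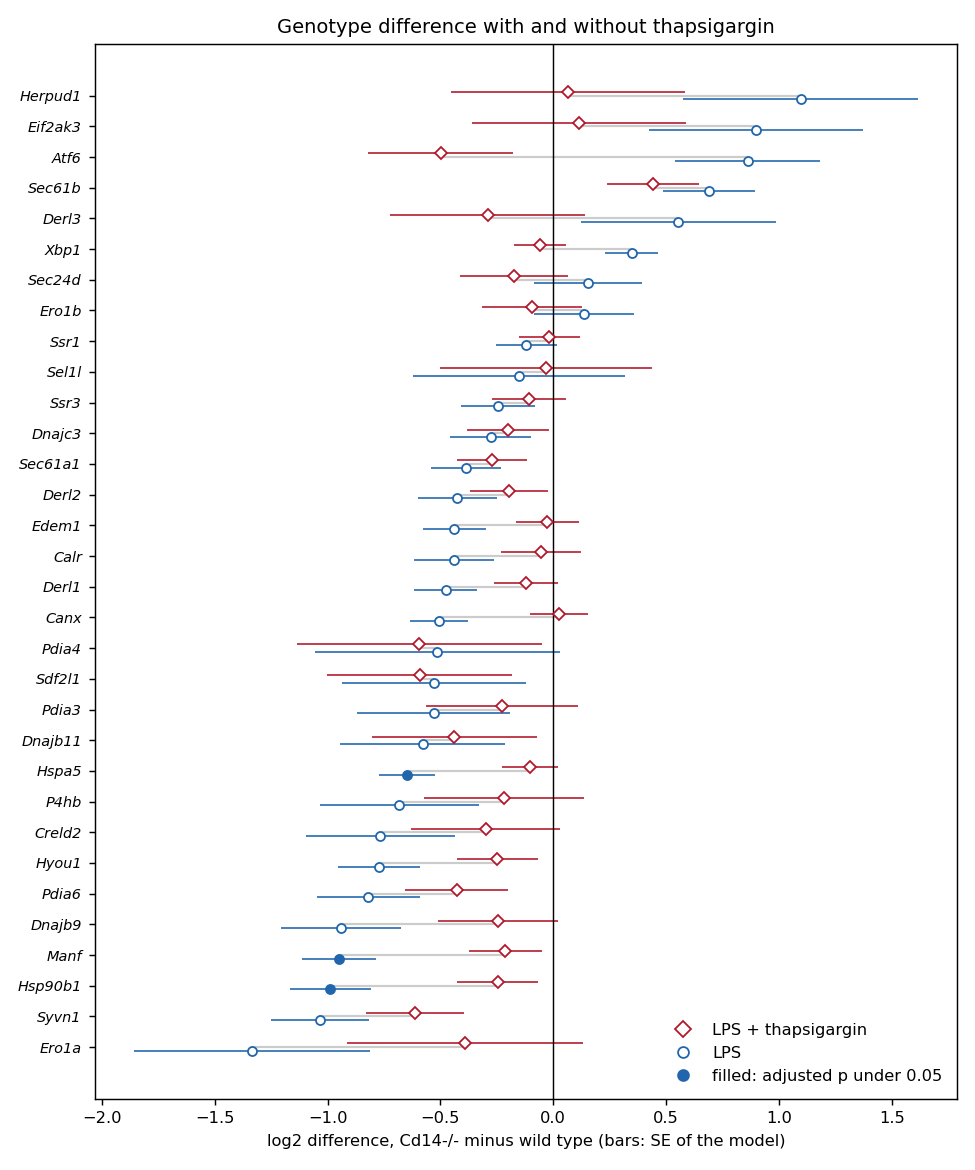
Log2 difference of the 32 tested members between Cd14-/- and wild-type cells, with the standard error of the model, under LPS plus thapsigargin (red diamonds) and under LPS alone (blue circles); filled circles passed an adjusted p of 0.05. Hspa5, Hsp90b1 and Manf are filled under LPS, and no diamond is filled.

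Against unstimulated cells the members moved in different directions. Unstimulated cells were harvested at 24 h and all stimulated cells at 48 or 60 h. Treatment and time in culture therefore cannot be told apart in any comparison with unstimulated cells, and the 48 to 60 h term does not cover this gap. With LPS plus thapsigargin, 1 member rose and 1 fell in Cd14-/- cells, where 11% of all genes rose, 10.4% fell and 21.5% passed in either direction. Dnajb9, a J-domain partner of BiP, rose (1.22 ± 0.33, adjusted p = 0.0473) and Xbp1 fell (−0.57 ± 0.14, adjusted p = 0.0394). In wild type, 6 rose and 0 fell, where 11.6% of all genes rose, 9.51% fell and 21.1% passed in either direction. They were Hspa5 (0.57 ± 0.15), Dnajb9 (1.47 ± 0.33), Manf (0.94 ± 0.20), Ero1a (2.45 ± 0.64), Syvn1 (1.17 ± 0.27) and Derl3 (2.66 ± 0.53), or 5 without Derl3, which passed the filter through the thapsigargin arrays alone. Dnajb9 read 3824 and 4214 in Cd14-/- cells with thapsigargin, 2449 and 1599 with LPS and 1722 unstimulated, and 4743 and 4769, 3197 and 4509.9 and 1723 under the same conditions in wild type. The wild-type LPS arrays were already well above unstimulated cells, and the Cd14-/- LPS arrays lay on either side of theirs. Both thapsigargin arrays lay above the unstimulated array for 20 members in Cd14-/- cells (19 without Derl3), where 46.1% of all genes did. In wild type they did so for 22 (21 without Derl3), where 47.6% of all genes did. Each unstimulated condition is 1 array, assumed to vary like the others.

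With LPS alone, 0 members passed in Cd14-/- cells against unstimulated, where 2.17% of all genes rose, 2.01% fell and 4.17% passed in either direction, and 0 were higher and 11 lower at an unadjusted p under 0.05, where 11.9% of all genes were higher and 10.7% lower. Their median log2 change was −0.51. Both LPS arrays lay below the unstimulated array for 23 members in Cd14-/- cells, where 33.5% of all genes did, and for 15 in wild type, where 42.1% did. In wild type 1 rose and 1 fell, where 7.69% of all genes rose, 8.24% fell and 15.9% passed in either direction. Edem1 rose (0.77 ± 0.17, adjusted p = 0.0351) and Xbp1 fell (−0.88 ± 0.14, adjusted p = 0.015), with a median of −0.12 over the members. Edem1 read 3057 and 2682 in Cd14-/- cells with thapsigargin, 2717 and 2112 with LPS and 2119 unstimulated, and 3151 and 2695, 3523 and 2993 and 1905 under the same conditions in wild type. Its highest signal came from wild-type cells after 48 h of LPS, and both LPS arrays exceeded the unstimulated one in wild type. The rise rested on this probe set: the other read 1388 and 1689 with LPS and 1391 unstimulated in wild type, and with the mean of probe sets 0 members rose there and 1 fell. Ero1a read 5093 and 3599.8 in Cd14-/- cells with thapsigargin, 1219 and 3221 with LPS and 1366 unstimulated, and 7273 and 4330.01, 6096 and 4099.9 and 1027 under the same conditions in wild type. All wild-type stimulated arrays were high, while the Cd14-/- LPS arrays were apart at 48 and 60 h.

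**Figure D5:**
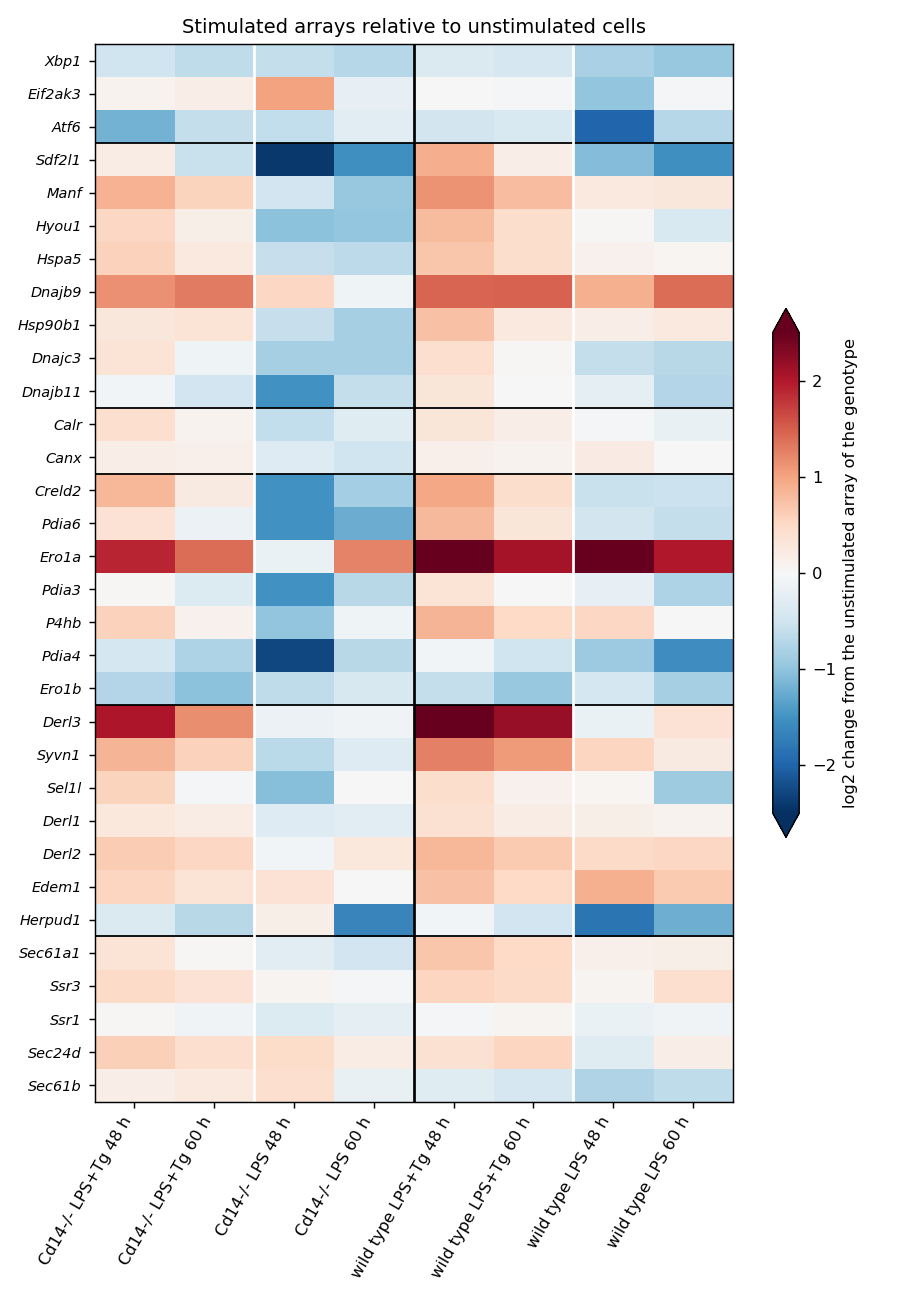
Log2 change of the 32 tested members (rows, grouped by role with black lines) on each stimulated array from the unstimulated array of the same genotype (columns, Cd14-/- left); red is higher, blue lower, and the colours end at 2.5 either way. The Cd14-/- LPS columns are mostly blue, Ero1a, Dnajb9 and Derl3 are the reddest rows with thapsigargin, and Xbp1 is blue in all 8 columns.

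Genes of the same pathways outside the members were counted as a wider frame, from lists chosen with earlier results of these data known. In Cd14-/- cells with thapsigargin over LPS, 4 of 13 tested stress regulators rose: Ddit3 (CHOP, a factor of prolonged ER stress; 2.79 ± 0.37), Trib3 (2.31 ± 0.32), Atf4 (the factor translated under PERK signalling; 1.62 ± 0.13) and Creb3l2 (1.36 ± 0.24). Over all tested genes, 3.43% rose and 3.2% fell in this comparison. Of 14 other degradation genes 2 rose, Ufd1 (1.18 ± 0.22) and Selenos (1.04 ± 0.17), and of 8 COPII export genes 1 rose, Sar1a (1.53 ± 0.20). Of 14 other folding genes 0 rose and 1 fell, the disulfide reductase Dnajc10 (−0.87 ± 0.17), and of 19 translocation and glycosylation genes and 4 ER calcium genes 0 passed. In wild type 0 genes of these 6 lists passed. Ddit3 read 5108 and 4915 in Cd14-/- cells with thapsigargin, 479 and 1102 with LPS and 447 unstimulated, and 5645 and 4816, 3545 and 3223 and 465 under the same conditions in wild type. The wild-type LPS arrays lay well above both Cd14-/- LPS arrays, and the unstimulated arrays were alike.

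Marker genes of some other cell types also differed with thapsigargin. Summed B and plasma cell markers (6 of 8 on the array, 4 tested), cells rich in this machinery, were 1661 and 2009.97 in Cd14-/- cells with thapsigargin, against 3489 and 6014 with LPS, and 2625 and 3067 in wild-type cells with thapsigargin, against 5408 and 5253 with LPS. Sdc1 makes up most of each sum except on the Cd14-/- LPS array at 48 h, where Ighm read 1789. Sdc1 read 1484 and 1703 in Cd14-/- cells with thapsigargin, against 1023 and 4237 with LPS, so at 48 h it was higher with thapsigargin. Jchain (−3.36 ± 0.34) and Ighm (−3.70 ± 0.49) fell in Cd14-/- cells. Ighm read 74.9 and 193 there with thapsigargin, against 1789 and 1364 with LPS.

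Macrophage markers (7 of 7 tested) summed to 10067 and 9387 with thapsigargin, against 7878 and 17976 with LPS in Cd14-/- cells, and 12016 and 10768, against 20658 and 18153 in wild type. Neutrophil markers (4 of 5 tested) were 695 and 635, against 1887 and 2236, in Cd14-/- and 612 and 623, against 1957 and 1768, in wild-type cells. They were lower with thapsigargin in both genotypes, and 2 of 4, Camp and S100a8, fell in Cd14-/- cells. The stromal gene Dcn, the 1 tested of 4 stromal markers, read 64.7 and 128 in Cd14-/- cells with thapsigargin, against 89.2 and 416 with LPS, and 131 and 159 in wild-type cells with thapsigargin, against 921 and 2707 with LPS. It fell over both genotypes (−2.27 ± 0.33).

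Dendritic markers (8 of 8 tested) summed to between 34993 and 57739 on all arrays, mostly from H2-Aa, H2-Ab1 and Cd74, while single members moved widely. Itgax read 983 and 750.4 in Cd14-/- cells with thapsigargin, against 892 and 6941 with LPS, and Ccr7 read 7189.9 and 9547, against 16168 and 7190.2. Flt3 fell in Cd14-/- cells (−3.37 ± 0.52). Ms4a2 of mast cells and Ncr1 of NK cells were under the floor on all 10 arrays. The part of the marker genes in the results was not tested.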

How the data were processed

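The deposited values are probe set intensity on a linear scale from single-colour Affymetrix arrays, made by the authors with MAS5, per the submitters' processing notes; a MAS5 version and target level are not given in the sources used. From there, each of 10 arrays was scaled to a common 2% trimmed mean (509), raised to a floor at the pooled 25th percentile (13.4) and taken to log2. Of 22690 probe sets, 20393 had 1 gene symbol, 691 several and 1606 none; only the first kind was used, with the brightest probe set per gene. Genes above the pooled median (99.2) on at least 2 arrays were tested (7474 of 12393).

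All arrays entered 1 limma 3.58.1 model per gene under R 4.3.3 (6 levels of genotype and treatment, a 48 to 60 h term, eBayes with intensity trend, 3 residual degrees of freedom). Errors after ± are standard errors of that model, and p-values were two-sided and Benjamini-Hochberg adjusted over 7474 genes with a threshold of 0.05. With 1 array a condition, the number of arrays limits the precision. The members, the gene lists and the rule for giving values on every array (members past the threshold in a thapsigargin or genotype comparison, with Hspa5, Xbp1, Atf6, Ern1 and Eif2ak3, plus the 2 largest called genes of the wider lists) were chosen with earlier results of these data known; Herpud1, Dnajb9, Ero1a, Edem1 and further genes of the wider lists were named after their values were seen. Alternatives were other scalings, floors, filters, probe set rules and variance settings, and leaving out arrays. Promoter windows came from RefSeq (GRCm38.p6).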

Additional observations from a re-analysis of the deposited data

Results flagged for a closer look

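Atf6 and Edem1 drew attention because thapsigargin moved each in opposite directions in the genotypes at both 48 and 60 h. For Atf6, LPS plus thapsigargin over LPS gave log2 changes of −0.57 and −0.30 in Cd14-/- cells, against 1.52 and 0.32 in wild-type cells, a difference of effects of −1.36 that did not pass the test (limma adjusted p = 0.308). For Edem1 the changes were 0.17 and 0.34 in Cd14-/- cells, against −0.16 and −0.15 in wild type, a difference of 0.413 that did not pass either (limma adjusted p = 0.427). For Atf6, 1 probe set had a mean signal above the pooled median. For Edem1, 2 did, and the other probe set read 1885 and 1729 in Cd14-/- cells with thapsigargin and 2969 and 1281 with LPS, and 2058 and 1982 in wild-type cells with thapsigargin and 1388 and 1689 with LPS.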

How the results depend on the processing

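Counts of members called depended on few arrays. Leaving out each array in turn gave between 0 and 22 members for thapsigargin in Cd14-/- cells (8 with all arrays), 0 and 15 in wild type (0), 0 and 16 for the difference of these effects (0), 0 and 24 over both genotypes (10), 0 and 23 for the genotypes under LPS (3), 0 and 0 for the genotypes under LPS plus thapsigargin (0), 0 and 18 for LPS against unstimulated in Cd14-/- cells (0) and 0 and 15 in wild type (2), and 0 and 12 for LPS plus thapsigargin against unstimulated in Cd14-/- cells (2) and 0 and 18 in wild type (6). The highest counts came without a Cd14-/- LPS array, which leaves 1 array in that group. Calls then grew over all genes too in the thapsigargin comparisons and those against unstimulated cells, so the growth is not particular to the members. Wild-type thapsigargin calls were 15 without either Cd14-/- LPS array. The thapsigargin count in Cd14-/- cells was 22 without the Cd14-/- LPS array at 60 h, 16 without that at 48 h, 3 without either wild-type LPS array and 0 without any of the 4 thapsigargin arrays. Over both genotypes it was 24 without the Cd14-/- LPS array at 48 h, 23 without that at 60 h and 0 without any of the other 6 stimulated arrays. The genotype count under LPS was 9 and 23 without the Cd14-/- LPS array at 48 or 60 h and 0 without any of the other 6. Without both arrays of lowest cRNA yield, with 1 residual degree of freedom, calls grew over all genes too: the counts were 22 for thapsigargin in Cd14-/- cells (43.5% of all genes passed) and 22 in wild type (15.7%), 8 for the difference (12.8%), 27 over both genotypes (46.5%), 12 and 6 for the genotypes without and with thapsigargin (22.5% and 5.04%), where the member medians were −0.04 and −0.21, 13 and 19 for LPS against unstimulated in Cd14-/- and wild-type cells (28.2% and 50.1%), and 19 and 20 for LPS plus thapsigargin (62.2% and 60.4%). Without a filter on dim genes, which adds genes to the adjustment, the counts were 0 for thapsigargin in Cd14-/- cells, 2 over both genotypes, 0 for the genotypes under LPS, and 1 and 1 for LPS plus thapsigargin against unstimulated in Cd14-/- and wild-type cells. Without scaling, the genotypes under LPS gave 1, LPS in Cd14-/- cells 1, and LPS plus thapsigargin 1 in Cd14-/- and 3 in wild-type cells. Quantile normalization gave 1 for LPS in Cd14-/- cells. Every probe set tested gave 5 for the genotypes under LPS and 5 for LPS plus thapsigargin against unstimulated in Cd14-/- cells, where a strict filter gave 1, the mean of probe sets 1, no intensity trend 0 and no time term 1. LPS in wild type gave 1 with the mean of probe sets and 1 without the intensity trend, and without that trend the genotypes under LPS gave 0. The difference of the thapsigargin effects reversed without the Cd14-/- LPS array at 60 h for Pdia4 (0.95, against −1.11 without the 48 h array) and Sdf2l1 (0.69, against −0.82), as did LPS against unstimulated in Cd14-/- cells for Ero1a (−0.47, against 1.54), and Sdf2l1 between the genotypes under LPS reached 0.43 without both lowest-yield arrays. The cause was not tested. No paired analysis was possible because the labels give no replicate numbers, and arrays were matched only by genotype and time, through the time term and the 4 pairs.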

Other observations

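When thapsigargin was averaged over both genotypes, 1 of 14 tested genes of the wider folding list, 1 of 4 ER calcium genes and 2 of 19 translocation and glycosylation genes rose, and 0 fell, where 3.3% of all genes rose. All calls of the members in this comparison were lost when any 1 of 6 stimulated arrays was left out. Pdia5, another protein disulfide isomerase, read 384 and 332 in Cd14-/- cells with thapsigargin and 170.3 and 110.2 with LPS, and 711 and 532 in wild-type cells with thapsigargin and 208 and 277 with LPS. Its log2 rise was 1.37 ± 0.21 (limma adjusted p = 0.0239). Atp2a3, which encodes SERCA3, a calcium pump of the family that thapsigargin blocks, read 488 and 486 in Cd14-/- cells with thapsigargin and 426 and 271 with LPS, and 429 and 722 in wild-type cells with thapsigargin and 125 and 153 with LPS, a rise of 1.26 ± 0.24 (limma adjusted p = 0.0433). Srprb, a subunit of the receptor for the signal recognition particle, rose by 0.80 ± 0.14 (limma adjusted p = 0.0358), and Ostc, a subunit of the oligosaccharyltransferase, by 0.67 ± 0.13 (limma adjusted p = 0.042).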
